A study of Mus musculus with 6 samples.

Results

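Of 10023 circular RNA (circRNA) entries measured in mouse aorta, 4845 were listed as uncatalogued circles of 2 to 7 exons. Some are the same circle listed again with a start 1 base away, and 4443 are left when such entries are summed and sums that hold a catalogued circle are set aside. An entry was taken when it had a running number in place of a catalogue name beginning with mmu_circ, was neither intronic nor intergenic, and was listed with 2 to 7 exons. The aortas came from male ApoE-/- mice on a C57BL/6 background, which lack apolipoprotein E and carry raised blood cholesterol. The mice were 6 weeks old at the start and then received for 12 weeks either a high-fat diet (HFD) with added cholesterol and cholic acid or a chow diet, which the labels call normal diet. Each diet had 3 aortas, sequenced as total RNA, and the question was which circles differ between the diets. The sample labels and the methods of the study both mention RNase R, which removes linear RNA, and for the libraries the methods also describe depletion of ribosomal RNA from total RNA.

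A circRNA forms when the spliceosome joins the end of an exon to the start of the same or an upstream exon, a reaction called back-splicing. The product has no free ends, resists exonucleases and outlives most linear transcripts of its host gene, and only reads that cross the back-splice tell it from the linear RNA. Circles often begin at the second exon of the host gene and are flanked by long introns. Some bind microRNAs or RNA-binding proteins, and in the artery wall they have been studied in smooth muscle cells, endothelium and macrophages.

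The libraries were shallow in back-spliced reads, and those of the HFD aortas had fewer. Over all entries, 4694, 5621 and 4875 back-spliced reads were counted on HFD and 7585, 7142 and 7476 on chow diet. Every HFD library was below every chow library. Per 100000 reads of the depth that scales the deposited SRPBM signal, these were 8.14, 9.32 and 8.40 against 10.3, 9.82 and 10.7, also without overlap, so the gap was larger than that in depth. On uncatalogued circles of 2 to 7 exons fell 2022, 2226 and 1863 reads on HFD and 3021, 2810 and 2874 reads on chow diet. As a share of each library this was 43.1%, 39.6% and 38.2% on HFD and 39.8%, 39.3% and 38.4% on chow diet, that is 40.3% ± 2.50 against 39.2% ± 0.703 (SD, n = 3 each). The shares of the diets overlapped, and the highest value was that of HFD replicate 1. Without that aorta the HFD minus chow difference of 1.09 percentage points became -0.297.

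The number of different uncatalogued circles seen per aorta was lower on HFD. Reads were found for 914, 960 and 918 of them on HFD and for 1290, 1235 and 1183 on chow diet. When each library was reduced to the 4694 reads of the shallowest, the expected numbers were 914, 870 and 898 on HFD and 976, 976 and 930 on chow diet. The groups did not overlap at either depth, with means of 894 ± 22.1 and 961 ± 26.4 (SD, n = 3 each) at equal depth. The HFD minus chow difference was -66.7 circles at equal depth and -305 at full depth. With 3 aortas a diet, an exact permutation test cannot give a p below 0.1.

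Most uncatalogued circles were rare. The 4845 entries together had 14816 reads from 2698 host genes, with a median of 2.00 reads each over the 6 aortas, and 2343 of them (48.4%) had 1 read in all. Only 196 reached 10 reads and 38 reached 30 reads, while the 10 most read circles took 1646 reads, or 11.1% of the total. A host gene had 1 such circle in 1636 cases (60.6%) and 10 or more in 11 cases.

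Compared with catalogued circles of the same size, the uncatalogued ones had fewer reads on average and recurred less. The 2220 catalogued circles of 2 to 7 exons had 12670 reads, and the median was 2.00 reads per entry in both classes. Mean reads per uncatalogued entry were 0.417, 0.459 and 0.385 on HFD and 0.624, 0.580 and 0.593 on chow diet, and per catalogued entry 0.651, 0.853 and 0.762 against 1.15, 1.11 and 1.18. The uncatalogued mean was the lower in all 6 aortas, with a mean log2 ratio of -0.889 ± 0.129 (SD, n = 6), which is 1.85-fold, and p = 0.031 in a two-sided exact sign-flip permutation test, the smallest p that 6 aortas allow. Among entries with reads in at least 2 aortas the log2 ratio was -0.252. Reads came from 1 aorta alone in 80.0% of uncatalogued and 52.3% of catalogued circles, and from all 6 aortas in 0.929% (45 circles) and 4.95% (110 circles).

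By exon number, the uncatalogued circles counted 1148 with 2 exons, 1160 with 3, 983 with 4, 666 with 5, 514 with 6 and 374 with 7. Catalogued circles leaned more to the small end, with 29.9% of them at 2 exons against 23.7% of the uncatalogued. Mean reads per uncatalogued circle were 4.08 at 5 exons, where 2 circles, circRNA2169 and circRNA2714, held 336 and 200 of the 2716 reads, and 2.34 at 7 exons. Just outside the size limits, 290 uncatalogued circles of 1 exon had 2.86 reads each and 263 of 8 exons had 2.33 reads each, against 3.26 at 2 exons and 2.34 at 7 exons.

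The share of these reads that lay on 2-exon circles was 29.2%, 28.8% and 27.9% on HFD and 23.6%, 24.9% and 20.0% on chow diet. The diets did not overlap, at 28.6% ± 0.656 and 22.8% ± 2.53 (SD, n = 3 each). The most read 2-exon circle, circRNA2611 of Tulp4, was part of this. Without it, a check added after the data were seen, the shares were 25.8%, 25.4% and 25.3% against 21.9%, 23.9% and 18.6%, still without overlap. On 3-exon circles the share was lower on HFD, at 21.9% ± 1.06 against 24.4% ± 1.52 (SD, n = 3 each), without overlap, though HFD replicate 1 and chow replicate 1 were both at 22.7% once rounded. The shares on 4, 5, 6 and 7 exons overlapped. In catalogued circles the share on 2 exons was 27.0%, 28.0% and 25.5% on HFD and 26.7%, 23.3% and 23.5% on chow diet, with overlap.

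The uncatalogued circles were listed in 2 ways, and how these came to stand in 1 table is not given in the sources used here. For 3947 of them the table gave the numbers of the exons and a gene symbol, and for 898 it gave the flanking introns and an Ensembl gene. Among all exonic entries of 2 to 7 exons, 35.9% of those listed by exon number had a catalogue name, against 0.664% of those listed by flanking introns (6 of 904). Over the 6 aortas, mean reads per uncatalogued entry were 2.32 for those listed by exon number and 6.32 for those listed by flanking introns, beside 5.71 per catalogued entry. The forms also differed in their smallest values, since 3389 of the 5177 values above 0 in the first were 1 read and only 5 of the 1323 in the second. Of the entries listed by flanking introns, 72.7% had reads in 1 aorta alone, against 81.6% of those listed by exon number.

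Set against the exons of the GENCODE vM21 annotation (GRCm38), all 3947 circles listed by exon number began on the first base of an annotated exon and ended on the last base of an annotated exon. Of the 898 listed by flanking introns, 836 (93.1%) ended on an exon end, but 814 (90.6%) had a start 1 base after an annotated exon start and 9 had one on it. The start here is the lower coordinate, so this base is the first of the circle for a gene on the plus strand and the last for a gene on the minus strand. An uninterrupted run of exons of an annotated transcript was found for 3947 of the former and 747 of the latter, allowing for that base, and 4694 circles in all had a sequence.

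These circles had a median length of 488 nt, with the middle of the distribution from 344 to 705 nt, close to the 468 nt of the catalogued ones. The span on the genome had a median of 7741 bp. Of circles listed by flanking introns, 39.1% began at the second exon of the transcript, with median introns of 11427 bp upstream and 9574 bp downstream, and in catalogued circles these values were 32.5%, 11463 bp and 8738 bp. Among the former, 255 had the ends of a catalogued circle, and without these, a check added after the data were seen, the values were 37.0%, 9972 bp and 8841 bp. Circles listed by exon number began at the second exon in 23.7% and had shorter introns, 5249 bp and 4257 bp. Coding bases were counted on the single transcript that gave the sequence, so a circle without any can be coding on another transcript of its gene. On that transcript all bases were coding in 81.7% of circles listed by exon number, 59.8% of those listed by flanking introns and 80.6% of catalogued circles. Among those listed by flanking introns, 22.0% had no coding base on it, the greatest share of the 3 sets.

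Most uncatalogued circles had ends that no catalogued circle of the table used. Neither end was an end of a catalogued exonic circle in 3739 (77.2%), 1 end was in 804 (16.6%), and 47 (0.970%) had ends that catalogued circles use, though not together. The other 255 (5.26%), with 1263 reads, had the same ends as a catalogued circle once the missing base was allowed for. A host gene with at least 1 catalogued exonic circle held 2245 (46.3%) of the uncatalogued ones.

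A start 1 base away separated 407 pairs of entries that shared chromosome, strand and end and held an uncatalogued circle, 554 such circles (11.4%) in all. In all 407 pairs the earlier entry was listed by exon number and the later by flanking introns, and 255 pairs held a catalogued name. Over the 6 aortas the pairs gave 1426 values with a read in either entry, of which 888 had reads in the earlier entry alone, 533 in the later alone and only 5 (0.351%) in both. An aorta therefore showed a circle under either start but almost never under both. Of the pairs seen under 1 start alone in an aorta, the later entry was the one in 40.1%, 35.2% and 34.4% on HFD and 37.4%, 42.4% and 35.3% on chow diet, with overlap between diets. Summing each pair raised the number with reads in at least 3 aortas to 269, from 147 for the earlier and 25 for the later entry.

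The pairs with a catalogued partner and the most reads showed the exchange plainly. A circle of Gigyf2, a partner in translational repression, was read as circRNA4510 in HFD replicate 1 (17 reads) and chow replicate 2 (19 reads) and in no other aorta. Its partner mmu_circ_0000057 had 0, 8 and 6 reads on HFD and 27, 0 and 18 on chow diet, so the sum was 17, 8 and 6 against 27, 19 and 18, and every aorta had reads. Once scaled, the sums overlapped between diets, at 12.2 ± 7.76 and 18.9 ± 4.48 (SD, n = 3 each). For Tmem164, circRNA6074 had 13 reads in HFD replicate 2 and 12 in chow replicate 3, and mmu_circ_0001894 had 9, 0 and 11 against 6, 19 and 0. Their sum, 9, 13 and 11 against 6, 19 and 12, overlapped between diets. For Erbin, a scaffold protein, circRNA9074 was read in HFD replicate 3 alone (15 reads), the only HFD aorta where mmu_circ_0000495 was at 0, with sums of 2, 8 and 15 against 10, 30 and 6. For Hnrnpll, an RNA-binding protein, circRNA6038 had 2 reads in chow replicate 3, where mmu_circ_0000819 was at 0 beside 3, 12 and 17 reads on HFD and 16 and 4 in the other chow aortas.

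The base that separates the entries of a pair sits at the back-splice. Below are 15 bases before and 15 bases after the junction for circles on which the diet comparison or the pairing turns, 5′ to 3′ on the strand of the gene, from GENCODE transcripts. The capital marks the base at the annotated exon start, which the later coordinate leaves out. The circles lie in GRCm38 at chr1:139040001-139062971 (circRNA2538, exons 3 to 8 of Dennd1b, 486 nt), chr16:35267180-35274565 (circRNA690, exons 4 to 8 of Adcy5, 682 nt), chr11:84193080-84195687 (circRNA2621, exons 3 to 4 of an Acaca transcript, 297 nt), chr1:87364105-87380008 (circRNA4510, exons 2 to 6 of Gigyf2, 494 nt) and chrX:142752041-142834393 (circRNA6074, exons 3 to 7 of Tmem164, 506 nt), all on the plus strand. Of these, circRNA690 is listed with the capital base and the other four without it. Exons are counted along the GENCODE transcript that gave the sequence, so the count can differ on another transcript, and for Dennd1b it differs from that of the study.
circRNA2538: agcaaattaagcactGaagttctgcagagc
circRNA690: gagatgaagaggatgCatcctgtttgctga
circRNA2621: ggcctttcacatgagTtctttttggaggcg
circRNA4510: gaagaaaagatgtagGctccgtgctctgtc
circRNA6074: gaaaatagactaaagAtcttcctcctggcc

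Between the diets, 3 uncatalogued circles differed at an adjusted p under 0.05, circles of Tulp4, Arhgap32 and Msrb3. Reads in at least 2 of the 6 aortas were required, which 970 (20.0%) of the 4845 circles had. Counts were fitted with edgeR's quasi-likelihood test over all 2564 entries that passed, with Benjamini-Hochberg adjustment over all of them. A circle with reads in a few aortas of 1 diet only could pass through that diet alone, and 293 of the 970 had no read in the other diet.

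The circle with the most reads, circRNA2611 of the tubby-like gene Tulp4, had 93, 103 and 64 reads on HFD and 66, 37 and 48 on chow diet. Scaled to a common library size these were 108, 104 and 77.4 against 61.0, 33.8 and 41.7, so every HFD aorta lay above every chow aorta, at 96.7 ± 16.8 and 45.5 ± 14.0 (SD, n = 3 each). The log2 fold change was 1.09 (SE 0.18, adjusted p = 1.4e-06, edgeR). It held an adjusted p under 0.05 in 9 of 15 alternative settings, with log2 fold changes from 0.87 to 1.34 and adjusted p-values from 1.5e-10 to 0.55. Leaving out any chow aorta, or HFD replicate 2, took it above 0.05. So did filters of reads in at least 3 aortas (adjusted p = 0.47, edgeR) and of at least 10 reads (adjusted p = 0.20, edgeR). The circle is listed with 2 exons at chr17:6137212-6139156 (GRCm38), its ends lie 1 base after an exon start and on an exon end of Tulp4, and no annotated transcript had a run of exons with both.

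Of the circles that were lower on HFD, circRNA2169 had the most reads, from exons 14 to 18 of Arhgap32, which encodes a GTPase-activating protein. It had 21, 48 and 23 reads on HFD and 97, 65 and 82 on chow diet. Normalized reads were 24.5, 48.7 and 27.8 against 89.6, 59.3 and 71.3, without overlap, and the means were 33.7 ± 13.1 and 73.4 ± 15.3 (SD, n = 3 each). The log2 fold change was -1.12 (SE 0.21, adjusted p = 2.1e-04, edgeR), and it lay between -1.55 and -0.88 over 15 alternatives, with an adjusted p under 0.05 in 5 of them and a range from 5.4e-04 to 0.99. Leaving out any aorta but HFD replicate 2 took it above 0.05. The same 2 filters did so too (adjusted p = 0.60 and 0.29, edgeR), as did library size alone, no filter and DESeq2.

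The other was circRNA2589, exons 3 to 5 of Msrb3, which encodes a methionine sulfoxide reductase. Reads were 26, 22 and 9 on HFD and 70, 46 and 46 on chow diet. After scaling they were 30.3, 22.3 and 10.9 against 64.7, 42.0 and 40.0, again without overlap, at 21.2 ± 9.74 and 48.9 ± 13.7 (SD, n = 3 each). The log2 fold change was -1.20 (SE 0.29, adjusted p = 0.018, edgeR), with values from -1.51 to -0.81 and adjusted p-values from 0.023 to 0.99 over the alternatives, 2 of the 15 under 0.05. Leaving out any aorta but HFD replicate 1 took it above 0.05. So did every other alternative except a replicate block, among them pairs summed (adjusted p = 0.089, edgeR).

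The junctions of both circles are given here with the same capital. They lie at chr9:32246447-32250787 on the plus strand (679 nt, all coding) and chr10:120825109-120852092 on the minus strand (216 nt, all coding), where the capital is the last base before the junction. The Arhgap32 circle was listed with that base, the Msrb3 circle without it, and neither had a partner 1 base away. The whole Msrb3 circle is shown as well, from the first base after the junction to the last before it, since it is the shorter of these.
circRNA2169: ccatggctttgaaagGatgctgtttcagca
circRNA2589: ttgactctggttcaGggtcatgtagggata
circRNA2589, whole circle: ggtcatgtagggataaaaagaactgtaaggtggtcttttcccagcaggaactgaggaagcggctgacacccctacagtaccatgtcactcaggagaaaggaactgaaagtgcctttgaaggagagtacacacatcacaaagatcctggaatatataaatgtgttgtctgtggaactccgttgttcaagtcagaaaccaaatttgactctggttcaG

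Criteria without adjustment, a p under 0.05 with a log2 fold change beyond 1 in either direction, were looser. By these, 51 of the 970 circles tested (5.26%) were called, against 4.06% of all entries tested. Of these, 19 (1.96%) were higher on HFD, where 1.29% of all entries were, and 32 (3.30%) were lower, where 2.77% of all entries were. An adjusted p under 0.05 was reached by 0.156% of all entries tested. The median log2 fold change as fitted was -0.221 for these circles and -0.180 for all entries tested. Both medians were 0.00 when a diet without reads, which 293 of the 970 circles had, was set at a floor of 3 reads a library. With library size alone as the scaling, the fitted medians were 0.00381 for these circles and 0.0412 for all entries. The calls were then 21 higher and 20 lower. Without an HFD aorta 27 circles were called, whichever was left out, and without chow replicate 1 there were 29. DESeq2 called 9.

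The called circles were mostly small numbers of reads in 1 diet. No read was found in any HFD aorta for 26 of the 51 and in any chow aorta for 17. Against the floor of 3 reads a library many of these had a fold under 1, down to 0.693, which shows no difference at the floor. The median of the 51 was 9.00 reads over the 6 aortas. Circles listed by flanking introns made up 34 of them (13.9% of the 245 tested) and those listed by exon number 17 (2.34% of the 725 tested). A partner 1 base away existed for 22, of which 10 were paired with a catalogued circle, and in 21 of these the partner had reads in the diet where the called entry was low. With pairs summed, 3 of the 22 were still called, as were all 29 called circles without a partner. Summing gave 44 calls among 1202 sums that held an uncatalogued circle (3.66%), against 3.40% of all sums and entries tested, and 12 of these held no circle called before.

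Of the 12, the most read was the sum of mmu_circ_0000976 and circRNA7007 of Itga8, the integrin alpha chain of contractile cells, chosen here after its values were seen. It had 3, 6 and 2 reads on HFD and 13, 7 and 18 on chow diet, without overlap. Its log2 fold change was -1.39 (adjusted p = 0.61, edgeR).

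The Dennd1b circle shows what a partner can do to a call. Dennd1b encodes an exchange factor for Rab GTPases. The entry circRNA2538 had 0, 0 and 0 reads on HFD and 4, 5 and 5 on chow diet, at least 1.24-fold lower on HFD against a floor of 3 reads a library (adjusted p = 0.58, edgeR). Its partner mmu_circ_0000081, which starts at the annotated exon start, had 5 reads in HFD replicate 2 and none in any other aorta. The Dennd1b circle of the study carries the catalogue name of this partner, not the uncatalogued name. The sum was 0, 5 and 0 against 4, 5 and 5, with overlap, and was not called (log2 fold change -1.12, SE 1.06, adjusted p = 0.88, edgeR). By quantitative PCR, a separate measurement, the paper reported the Dennd1b circle lower in HFD aortas, as it did circRNA690, circRNA994 and circRNA1984.

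The reads of the Adcy5 circle behaved in the same way when its partner was added. Adcy5 encodes an adenylyl cyclase, which makes cyclic AMP, a signal that relaxes smooth muscle. Its entry circRNA690 had no reads on HFD and 2, 5 and 9 on chow diet, at least 1.40-fold lower on HFD (adjusted p = 0.58, edgeR). Its partner circRNA7073 had 3 reads in HFD replicate 1, so the summed reads were 3, 0 and 0 against 2, 5 and 9, with overlap, and the log2 fold change of the sum was -1.89 (SE 1.12, adjusted p = 0.61, edgeR), not called. For Acaca, the first enzyme of fatty acid synthesis, circRNA2621 had 0, 4 and 3 reads against 10, 17 and 6, a log2 fold change of -1.89 (SE 0.86, adjusted p = 0.58, edgeR). The HFD aorta at 0 had 5 reads under circRNA6277, and the summed reads of 5, 4 and 3 against 10, 17 and 6 overlapped once scaled (log2 fold change -1.07, SE 0.68, not called).

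Other called circles had no partner. Inpp4a encodes a phosphatase of inositol lipids, and its circRNA1984 had 0, 2 and 0 reads on HFD and 14, 4 and 16 on chow diet. The chow aortas were all above the HFD ones, by a ratio of 13.6 with an exact 95% counting interval from 3.50 to 117 (adjusted p = 0.30, edgeR). Over 15 alternatives its log2 fold change ran from -6.40 to -2.87, and it was called in 14. Leaving out chow replicate 3 ended the call, and without HFD replicate 2 the adjusted p was 0.046 (edgeR). A 2-exon circle of the actin crosslinker Flna, circRNA2756, had no reads on HFD and 7, 3 and 3 on chow diet, at least 1.16-fold lower (adjusted p = 0.58, edgeR).

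Circles of Inpp4a and of 2 further members with many reads, Asph and Myocd, are shown by their junctions with 15 bases on each side, as sequence by which the circle can be told from the linear RNA. They lie in GRCm38 at chr1:37377578-37380060 (plus strand, exons 15 to 17 of Inpp4a, 542 nt), chr4:9635901-9639347 (minus strand, exons 2 to 3 of Asph, 219 nt) and chr11:65218529-65233184 (minus strand, exons 2 to 5 of Myocd, 360 nt), all in coding sequence.
circRNA1984: gctccagcaagaaagTacatcttctagtgg
circRNA1521: ccaaagttttattaGaggcaaagcacggag
circRNA366: aagaggctataaaaGtcttacagttacggc

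Most of the abundant uncatalogued circles did not pass the test between diets. The circle of Esyt2, an extended synaptotagmin that tethers the endoplasmic reticulum to the plasma membrane, had 25, 36 and 25 reads of circRNA2714 on HFD and 42, 34 and 38 on chow diet. Scaled, these were 32.0 ± 3.99 and 34.3 ± 4.04 (SD, n = 3 each), with overlap and a log2 fold change of -0.10 (SE 0.29). The circle of Asph, an aspartate beta-hydroxylase, had 10, 16 and 15 reads of circRNA1521 against 13, 18 and 9, and that of the ubiquitin ligase Ube3a, circRNA2526, had 4, 12 and 12 against 14, 10 and 21. The circle of the protocadherin Pcdh7, circRNA1416, had 9, 8 and 5 against 14, 6 and 17. All of these overlapped between diets, with adjusted p-values of 0.95 in edgeR.

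The host genes with the most uncatalogued circles of 2 to 7 exons were Dmd, Arhgap10, Nox4, Pdlim5 and Lpp. Dmd, which encodes dystrophin, had 24 such circles with 49 reads in all, 20 of them in 1 aorta, and its most read, circRNA2815, had 5 reads. The summed reads of the Dmd circles were 5, 3 and 5 on HFD and 9, 11 and 16 on chow diet, or 0.107%, 0.0534% and 0.103% of each library against 0.119%, 0.154% and 0.214%, without overlap. Arhgap10, a GTPase-activating protein, had 14 with 125 reads, and its circRNA2364 had 7, 8 and 7 reads on HFD and 8, 4 and 12 on chow diet. These overlapped, at a log2 fold change of 0.20 (SE 0.73). Lpp, a focal adhesion protein, had 11 circles with 27 reads, and circRNA669 had 2, 0 and 3 against 1, 0 and 0. The sums for Lpp were 7, 5 and 5 reads against 2, 4 and 4, with shares of 0.149%, 0.0890% and 0.103% against 0.0264%, 0.0560% and 0.0535%, higher on HFD without overlap. The shares of Arhgap10 overlapped, as did those of Nox4 and Pdlim5.

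Nox4, an NADPH oxidase of smooth muscle and endothelium, had 13 circles and no catalogued circle of that size. Their summed reads were 12, 5 and 4 on HFD and 21, 13 and 25 on chow diet. As shares of each library these were 0.256%, 0.0890% and 0.0821% against 0.277%, 0.182% and 0.334%. Its most read circle, circRNA1135, had 7, 2 and 3 against 11, 5 and 6, with overlap once scaled (log2 fold change -0.53, SE 0.87). Pdlim5, a cytoskeletal adaptor, had 12 circles, with 8, 26 and 12 reads against 24, 22 and 25. Its circRNA1762 had 4, 9 and 1 reads on HFD and 10, 11 and 11 on chow diet, without overlap after scaling but not called (log2 fold change -0.90, SE 0.76). Also in Pdlim5, circRNA3954, chosen here after its values were seen, had 0, 0 and 0 against 0, 6 and 8, and its partner circRNA2570 had 4, 3 and 2 against 5, 0 and 0, so no aorta had reads under both starts. Its circRNA8112, also chosen after its values were seen, had 0, 8 and 6 reads on HFD and 0, 0 and 0 on chow diet and no partner. It was called higher, with HFD replicate 1 at 0 like the chow aortas, at least 1.89-fold (adjusted p = 0.44, edgeR).

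Grouped by host gene, circles of smooth muscle genes had the lower share on HFD. Of 25 contractile and cytoskeletal genes, 17 had 91 uncatalogued circles, with 39, 40 and 29 reads on HFD and 97, 74 and 76 on chow diet. As shares of all back-spliced reads these were 0.831%, 0.712% and 0.595% against 1.28%, 1.04% and 1.02%, without overlap, at means of 0.712% ± 0.118 and 1.11% ± 0.146 (SD, n = 3 each). With catalogued circles of these genes added, the shares were 0.950% ± 0.154 and 1.47% ± 0.180, also without overlap. Without the most read circle, circRNA366, a check added after the data were seen, they were 0.540% ± 0.0632 and 0.891% ± 0.160, still without overlap. Of 25 circles tested, 2 were called lower and 0 higher at the looser criteria, where 2.77% and 1.29% of all entries were. These 2, circRNA994 and circRNA2756, had no reads on HFD and so passed the filter through the chow aortas alone. The median log2 fold change was -0.20 with a diet without reads at the floor of 3 reads a library, which 5 of the 25 had, beside 0.00 over all entries tested, and -0.54 as fitted beside -0.180. The defining genes Acta2, Tagln, Cnn1 and Myl9 had no such circle. In whole aorta, fewer cells of a type and less RNA per cell cannot be told apart.

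The most read of them, circRNA366 of Myocd, the coactivator that switches on contractile genes, had 11, 9 and 6 reads on HFD and 17, 11 and 21 on chow diet. Scaled, the values overlapped, at 9.73 ± 2.82 and 14.7 ± 4.21 (SD, n = 3 each), with a log2 fold change of -0.59 (SE 0.56, adjusted p = 0.90, edgeR). Of 18 genes of calcium handling and ion channels, 11 had 30 circles, with 16, 11 and 6 reads against 21, 19 and 21, and overlapping shares. Over 10 circles tested the median log2 fold change was 0.00 with a diet without reads at the floor, which 6 of the 10 had, and -2.37 as fitted. Over all entries tested these were 0.00 and -0.180. In this list circRNA1319 of the calcium release channel Itpr1 had 2, 1 and 0 reads against 6, 2 and 5 and was not called, circRNA4520 of the chloride channel Ano1 had 0, 0 and 0 against 0, 8 and 4, and circRNA6626 of the calcium channel Cacna1c had 4, 3 and 0 against 0, 0 and 0. Against the floor the Ano1 circle was at least 1.06-fold lower on HFD. The Cacna1c circle was 0.949-fold, which shows no difference at the floor. Of the 10 tested, 1 was called lower and 1 higher, where 2.77% and 1.29% of all entries were. The Ano1 circle had a partner, circRNA1207, with 3 reads in HFD replicate 2 and 2 in chow replicate 1, and their sum was not called.

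Circles of macrophage and foam cell genes had the higher share on HFD, with overlap once the most read circle was left out. Of 20 genes, 10 had 29 uncatalogued circles, with 17, 39 and 27 reads on HFD and 22, 19 and 22 on chow diet. The shares were 0.362%, 0.694% and 0.554% against 0.290%, 0.266% and 0.294%, without overlap, at 0.537% ± 0.167 and 0.283% ± 0.0152 (SD, n = 3 each). With catalogued circles of these genes added, they were 0.750% ± 0.207 and 0.315% ± 0.0384, also without overlap. Without the most read uncatalogued circle, circRNA1541, a check added after the data were seen, the uncatalogued shares were 0.256%, 0.587% and 0.492% against 0.277%, 0.224% and 0.268%, and HFD replicate 1 lay below 2 chow aortas. Of 13 circles tested, 0 were called higher and 1 lower, where 1.29% and 2.77% of all entries were. The median log2 fold change was 0.34 with a diet without reads at the floor, which 2 of the 13 had, and 0.80 as fitted. Over all entries tested these were 0.00 and -0.180. The defining genes Cd68, Itgax, Lgals3 and Trem2 had no such circle.

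In this list circRNA1541, from exons 3 to 7 of the cholesterol exporter Abca1, had 5, 6 and 3 reads on HFD and 1, 3 and 2 on chow diet. The scaled reads did not overlap, at 5.18 ± 1.35 and 1.80 ± 0.908 (SD, n = 3 each), and the log2 fold change was 1.47 (SE 1.11, adjusted p = 0.63, edgeR), not called. The circle called lower, circRNA1373 of the lipid scavenger receptor Cd36, had 0, 0 and 0 reads on HFD and 3, 0 and 6 on chow diet. Against the floor of 3 reads a library this was 0.786-fold, which shows no difference there. Its partner circRNA4617 had 0, 0 and 7 against 0, 2 and 0. Summed they overlapped, with a log2 fold change of -0.22 (SE 1.03).

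The lists for other cells that a dissected aorta can hold had few reads. Circles of 6 lymphocyte and leukocyte genes had 9, 5 and 7 reads on HFD and 6, 5 and 6 on chow diet, and those of 4 endothelial genes 3, 4 and 7 against 3, 2 and 3. As shares of the library neither overlapped, both being higher on HFD, at 0.141% ± 0.0514 against 0.0765% ± 0.00561 and at 0.0929% ± 0.0441 against 0.0359% ± 0.00684 (SD, n = 3 each). The most read circles of these lists were circRNA3426 of the leukocyte exchange factor Dock8 (6 reads) and circRNA3071 of the junction protein Pecam1 (5 reads). The defining genes Cd3e, Cd4 and Cd8a had no such circle, nor did Cdh5, Kdr and Tie1. Of 5 and 2 circles tested in these lists, 0 were called, where 4.06% of all entries were. Without its most read circle, a check added after the data were seen, the shares of either list overlapped. With catalogued circles added, the leukocyte shares overlapped and the endothelial ones did not.

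Circles of 7 adipocyte genes had 6, 9 and 8 reads on HFD and 16, 25 and 14 on chow diet, with shares of 0.151% ± 0.0199 and 0.249% ± 0.0879 (SD, n = 3 each) that did not overlap, though they did with catalogued circles added. The Acaca circle gave 40 of these 78 reads. Without it, a check added after the data were seen, the shares were 0.128%, 0.0890% and 0.103% against 0.0791%, 0.112% and 0.107%, which overlapped, with the HFD mean no longer the lower. Of 6 circles tested in this list, 0 were called higher and 1, the Acaca circle, lower, where 1.29% and 2.77% of all entries were. The median log2 fold change was 0.00 with a diet without reads at the floor, which 3 of the 6 had. Over all entries tested it was 0.00 too, and as fitted the medians were -2.21 and -0.180. The defining genes Adipoq, Plin1 and Ucp1 had no such circle. Circles of 8 fibroblast and matrix genes had 20, 9 and 10 reads against 20, 14 and 25 with overlapping shares, the most read being circRNA611 of the latent TGF-beta binding protein Ltbp1, with 6, 1 and 2 against 11, 2 and 11. Skeletal muscle genes had 6 reads in all, 5 of them in chow replicate 1, of which 3 were circRNA1842 of titin (Ttn). Circles of 7 genes for RNA-binding proteins that act in circle formation had 2, 2 and 1 reads against 3, 7 and 5 with overlapping shares, led by circRNA5090 of Mbnl2 with 4 reads. Depth was evened out for the number of circles detected and scaled in the diet test. Its part in the other differences between diets was not tested, nor was that of the cell makeup of each aorta in any.

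Circles can bind microRNAs through matches to the seed, and such matches were counted in the sequences. Shown are the mature sequences (RefSeq, GRCm38.p6) of miR-17-5p, let-7b-5p and miR-212-5p, with the seed, bases 2 to 8, in capitals.
mmu-miR-17-5p: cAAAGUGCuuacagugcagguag
mmu-let-7b-5p: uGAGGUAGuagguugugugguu
mmu-miR-212-5p: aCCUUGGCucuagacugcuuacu

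Read on the strand of the circle and across its junction, GCACTTT, the complement of the miR-17-5p seed, was in 4.03% of 4694 uncatalogued and 4.68% of 2220 catalogued circles. The complement of the let-7b-5p seed, CTACCTC, was in 4.90% and 4.55%, and that of miR-212-5p, GCCAAGG, in 8.07% and 7.70%. Per kb of circle these were 0.0721 and 0.0831, 0.0838 and 0.0793, and 0.147 and 0.142 matches. Of the circles named above, circRNA2538 of Dennd1b had 1 match for miR-17-5p and 1 for miR-212-5p, circRNA4510 of Gigyf2 had 1 for miR-17-5p, and circRNA690 of Adcy5 had 1 for let-7b-5p. For miR-212-5p, circRNA1373 of Cd36 and circRNA3071 of Pecam1 had 1 match each. The Inpp4a circle circRNA1984 held 1 match to the miR-212-5p seed and 1 to that of let-7b-5p. A match is a stretch of letters and not a measured site.

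The last of the named circles come from chromosome 18. Rock1, a kinase that raises smooth muscle tone, gave circRNA994 at chr18:10119885-10132272 (GRCm38), with no reads on HFD and 10, 13 and 0 on chow diet. Chow replicate 3 lay with the HFD aortas, the groups overlapped, and the circle was at least 2.07-fold lower on HFD (adjusted p = 0.22, edgeR). Without chow replicate 1 or chow replicate 2 it had reads in 1 aorta and was not tested. Zfp532, a zinc finger gene, gave circRNA1044, with 11, 10 and 5 reads on HFD and 2, 1 and 5 on chow diet. Scaled, these did not overlap, at 9.67 ± 3.40 and 2.37 ± 1.78 (SD, n = 3 each), with a log2 fold change of 1.97 (SE 0.88, adjusted p = 0.58, edgeR). This circle was called in 11 of 15 alternatives, with log2 fold changes from 1.54 to 2.70. Leaving out replicate 1 or 2 of either diet ended the call.

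Esco1, an acetyltransferase of cohesin, gave circRNA6523, with 3, 6 and 2 reads on HFD and none on chow diet, at least 1.48-fold higher. Its partner circRNA4422 had 2 reads in chow replicate 2, and the sum stayed without overlap and was called (log2 fold change 2.57, SE 1.29, adjusted p = 0.61, edgeR). Smad4, the shared mediator of TGF-beta signals, gave circRNA2535 with 10, 18 and 14 reads against 8, 19 and 28, with overlap and a log2 fold change of -0.07 (SE 0.47). Arhgap12, another GTPase-activating protein, gave circRNA2466 with 12, 25 and 11 reads against 22, 25 and 0, and chow replicate 3, the aorta at 0, had the 15 reads of mmu_circ_0000840, 1 base away. Summed, the chow aortas had 22, 25 and 15 reads, and the log2 fold change went from 0.30 to -0.02. The sequence of circRNA2466 had 1 match to the let-7b-5p seed.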

How the data were processed

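Per the labels and the methods of the study, the authors' pipeline was cutadapt for trimming, 2 circle callers (CIRI and CIRCexplorer) and TopHat-Fusion for what did not align. How the lists of the callers were joined is not given in the sources used here. The deposited counts are back-spliced reads per entry and aorta. The deposited SRPBM signal is that count divided by a depth per library, and was used for limma and for 1 check of the share of reads. The deposited log2 fold changes and p-values of the authors' own comparison were not used. The genome build is not given in the sources used here, but 98.6% of exonic entries end on an exon end of GENCODE vM21 (GRCm38), whose transcripts gave exon runs and sequences. No genome sequence was used, so bases outside the exons were not read.

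Replicates are separate aortas. As a check for duplicate libraries, pairs within a diet were compared over entries with 10 or more reads in both together, those listed under 2 starts included; chi-square per degree of freedom lay between 2.22 and 3.34, and no pair was merged. The diet test was edgeR 4.0.16 (R 4.3.3) with TMM scaling, tested on simulated data, with DESeq2 1.42.0 and limma 3.58.1 as alternatives. Other alternatives were other scalings and filters, a replicate block, pairs summed and each aorta left out. Named circles were those the study names or their partner, the 10 most read, those with an adjusted p under 0.05 and up to 5 per direction called without overlap, 5 pairs, 5 host genes, and the most read and called circles of each list. The members and lists were chosen with earlier results of these data known. Floors and intervals cover counting error only.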

Additional observations from a re-analysis of the deposited data

How the results depend on the processing

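The count of 51 called circles stayed within 1.5 times under library size alone (41), the depth of the authors (51), no filter (45), pairs summed (44) and limma (41). It was 32 with reads in at least 3 aortas, 24 with at least 10 reads and 9 with DESeq2, and 27 to 45 with an aorta left out. With the replicate block it was 14; replicate numbers name different mice, aortas of the same number did not deviate together (correlations -0.14, -0.15 and -0.04), and 0 of 3 HFD aortas correlated best with its own number. Of the 51, 9 were among the 9 of DESeq2 and 15 among the 32 found with reads in at least 3 aortas. Without chow replicate 2, 13 of the 45 called were among the 51, without chow replicate 3 it was 13 of 36, and without HFD replicate 1 it was 16 of 27. The share of calls that were lower was 62.7%, and ran from 44.4% with DESeq2 to 86.7% without chow replicate 2. It was 48.8% with library size alone, 78.1% with reads in at least 3 aortas, 81.5% without HFD replicate 1 and 80.6% without chow replicate 3.

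The difference in share of reads, 1.09 percentage points, ranged from -0.297 to 2.13 with an aorta left out, and was 0.487 with pairs summed and 1.66 over circles of 2 to 7 exons. In summed SRPBM it was -5576, a unit set by the depth of the library. The difference of -66.7 circles detected was -305 at full depth. The log2 ratio of reads per entry lay between -0.938 and -0.868 with an aorta left out, where 5 aortas allow no exact p below 0.0625. Without circRNA2621 the difference in the share of adipocyte genes went from -0.0987 to 0.00707 percentage points. With pairs summed, 78.7% of uncatalogued and 48.0% of catalogued circles had reads in 1 aorta alone, and the log2 ratio of reads per entry was -1.03. Over all alternatives the named circles gave 423 values on the same side of the criteria as reported, 47 that were no longer called and 1 that was newly called, and no called value changed sign. At this depth 48.4% of the circles had 1 read in all. The cause of these changes was not tested.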
